A study of Mus musculus with 15 samples.

Results

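The baseline for a mouse sepsis study was the plasma of sham-operated animals, and the 6 libraries titled Sham1 to Sham6, of 15 in the series, were described here by themselves. They were made from plasma freed of platelets by a slow and then a fast spin, taken from male wild type mice of the C57BL/6J strain 24 h after sham surgery, and each sham library carried the same labels apart from its number. The labels give neither age nor whether each number was a separate animal, so the spread between libraries may be partly technical. RNA from 100 µl of plasma went into adapter-ligation small RNA libraries, and the values are estimated reads per microRNA (miRNA).

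An miRNA is cut from a hairpin precursor, whose left and right sides are called the 5p and 3p arms. One arm is usually loaded into an Argonaute protein and kept, and the other is mostly degraded. Bases 2 to 8 of the loaded strand, the seed, do most of the pairing with target messenger RNAs, so miRNAs that share a seed are grouped as a family. Plasma miRNAs travel in protein complexes and vesicles released by blood cells, vessel walls and organs, and red cells are a major source when they leak or break.

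Sequences are shown for the largest seed families and for the red cell and leukocyte miRNAs described further on. They are RefSeq mature sequences on GRCm38.p6, written 5′ to 3′ with the seed in capitals, and not every abundant miRNA has an entry in that table.
miR-10b-5p: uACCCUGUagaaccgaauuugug
miR-10a-5p: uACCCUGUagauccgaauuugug
miR-99a-5p: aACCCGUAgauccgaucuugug
miR-100-5p: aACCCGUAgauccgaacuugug
miR-99b-5p: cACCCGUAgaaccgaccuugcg
miR-191-5p: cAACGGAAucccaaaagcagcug
miR-125a-5p: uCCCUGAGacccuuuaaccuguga
miR-125b-5p: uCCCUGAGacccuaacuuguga
miR-146a-5p: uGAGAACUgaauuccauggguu
miR-146b-5p: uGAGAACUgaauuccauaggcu
miR-22-3p: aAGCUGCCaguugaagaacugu
miR-192-5p: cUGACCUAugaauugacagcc
miR-215-5p: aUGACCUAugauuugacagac
miR-30a-5p: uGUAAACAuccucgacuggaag
miR-27b-3p: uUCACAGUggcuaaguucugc
miR-451a: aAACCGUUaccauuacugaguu
miR-144-3p: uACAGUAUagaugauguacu
miR-142a-5p: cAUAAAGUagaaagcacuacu
miR-142a-3p: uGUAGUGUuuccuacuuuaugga

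The smallest library, sham 4, held 5274676 counts and the largest, sham 6, held 10702028. Of the 1205 entries in the deposited table, 961 had a count in at least 1 sham library, 448 had one in all 6, and 183 were seen in 1 library only. A library held 652 ± 17.5 entries with a count (SD, n = 6, as for every ± below), and 643 ± 8.75 once all were thinned to the smallest total. The profile was steep: 122 entries had a mean of at least 100 CPM (counts scaled to the library total, with 1 count worth 0.0934 to 0.190 CPM) and 252 had at least 10 CPM, and the latter held 99.9% of all counts. Spearman correlations between pairs of libraries ran from 0.948 to 0.983 across entries, which are not independent replicates. Counting error was small at this depth, since the widest Wilson 95% interval of a share among the 20 most abundant entries reached 0.0398 percentage points to each side. These intervals and the floor of 3 counts (0.280 to 0.569 CPM by library) cover counting error only. Shares of different miRNAs compare reads and not molecules, because ligation efficiency was not calibrated.

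Most plasma miRNA reads came from a handful of miRNAs. miR-486a/b-5p, an miRNA of red cells that is also made in muscle, made up 36.7%, 46.0% and 35.7% of counts in sham 1 to 3 and 17.9%, 16.7% and 16.9% in sham 4 to 6. It ranked first in all 6 libraries, and the 2 sets of values did not come near each other. The single most abundant entry therefore averaged 28.3% ± 12.7 of counts, whereas the 10 highest entries of each library together held 71.6% ± 2.18 and the 20 highest 86.2% ± 0.763. miR-486a-5p and miR-486b-5p form 1 entry. The only precursor gene matched to it by name, Mir486, lies at chr8:23142555-23142682 (mm10, plus strand) in an intron of Ank1. Ank1 encodes a protein of the red cell membrane skeleton.

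Ranks 2 and 3 belonged to the paralogs miR-10b-5p and miR-10a-5p, which lie among the Hox genes that pattern the body axis. The share of miR-10b-5p was 7.57%, 6.35%, 9.64%, 14.2%, 13.7% and 11.1% in sham 1 to 6. That of miR-10a-5p was 7.95%, 6.41%, 8.85%, 10.5%, 11.2% and 11.6%. Their order was not fixed, since miR-10b-5p was the higher in 3 of 6 libraries, with a ratio from 0.953 to 1.35. Mir10b lies at chr2:74726070-74726137 (mm10, plus strand) in introns of Hoxd3 and Hoxd4, and Mir10a at chr11:96317165-96317274 (plus strand), outside annotated genes of its strand.

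**Figure D1:**
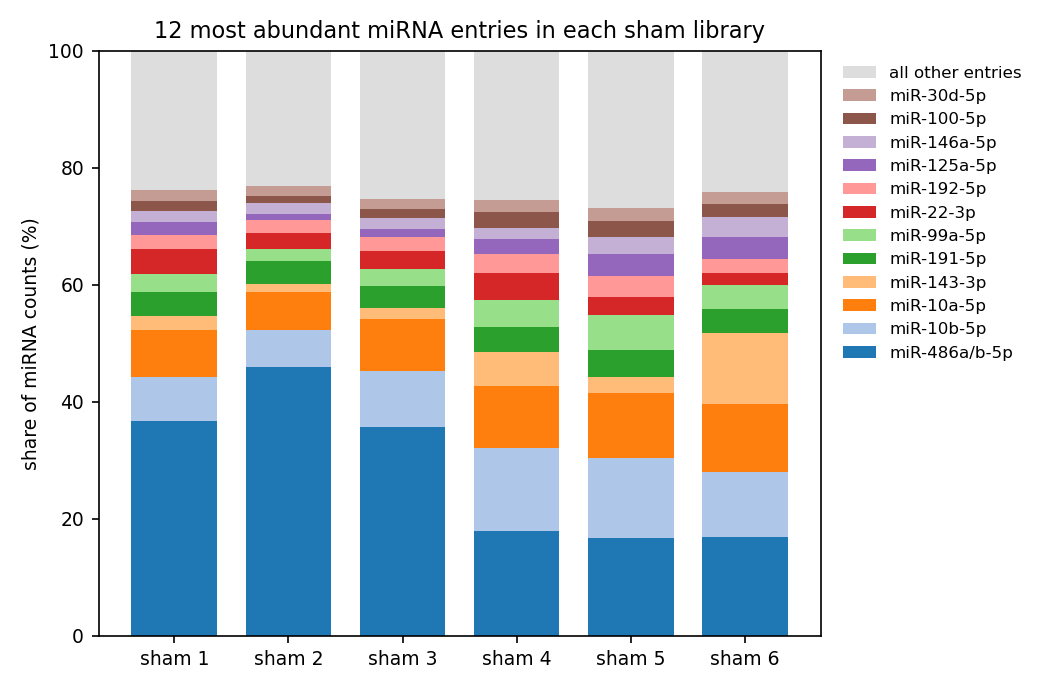
Stacked bars give the percent of miRNA counts (y axis) of the 12 most abundant entries, ranked by mean share, in each sham library (x axis), with all other entries in grey. miR-486a/b-5p takes 35.7% to 46.0% in sham 1 to 3 and 16.7% to 17.9% in sham 4 to 6, and miR-143-3p reaches 12.1% in sham 6.

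miR-143-3p, abundant in smooth muscle and fibroblasts, came next by mean (4.40% ± 4.07) with values of 2.48%, 1.48%, 1.90%, 5.81%, 2.66% and 12.1%. Its rank moved from 2 in sham 6 to 10 in sham 2 and sham 5. By contrast the share of miR-191-5p lay between 3.70% and 4.56% in every library (mean 4.10% ± 0.307). This miRNA is found in many cell types and often used as a reference. It exceeded miR-99a-5p (3.83% ± 1.45) in 3 of 6 libraries. With miR-486a/b-5p out of the total, miR-191-5p was less even, at 4.89% to 7.12% (mean 5.83% ± 0.845). miR-22-3p, found in many tissues including heart and blood cells, followed at 3.32% ± 0.941, and miR-192-5p, of gut, liver and kidney, at 2.66% ± 0.533.

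The next places went to miR-125a-5p (2.46% ± 1.17) and miR-146a-5p (2.34% ± 0.6251), the latter a brake on innate immune signalling. miR-125a-5p was lowest in sham 2 at 1.02% and highest in sham 5 at 3.83%. Below them, miR-100-5p, miR-30d-5p, miR-27b-3p, miR-30a-5p, miR-125b-5p, miR-146b-5p, miR-99b-5p, miR-24-3p, miR-29a-3p and miR-23a-3p had means from 1.98% down to 1.09%. Order within this stretch was loose: of neighbours in the order of means down to rank 20, only miR-486a/b-5p over miR-10b-5p and miR-30d-5p over miR-27b-3p kept their order in all 6 libraries. miR-23a-3p was among the most uneven, with 2.18% in sham 3 and 0.512% in sham 6, as was miR-125b-5p, with 2.42% in sham 5 and 0.552% in sham 2.

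By seed, 1 family dominated the entries that had a sequence. Sequences were matched for 1003 of 1205 entries, which held 62.6% of counts on average (49.3% to 74.6% by library); miR-486, miR-143 and miR-30d were among those without one. The ACCCUGU family, miR-10a-5p and miR-10b-5p, took 15.5%, 12.8%, 18.5%, 24.8%, 24.8% and 22.7% of all counts in sham 1 to 6. The libraries with the lowest shares were those with the most miR-486a/b-5p, and shares of one total cannot all rise together. With miR-486a/b-5p taken out of the total, the family's mean was 27.4% ± 2.75.

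The ACCCGUA family came second with 7.02% ± 2.26, made of miR-99a-5p, miR-100-5p and miR-99b-5p. miR-99a-5p supplied 54.5% of it, and the family was lowest in sham 2 (4.03%) and highest in sham 5 (10.1%). AACGGAA, which is miR-191-5p alone, came next at 4.10%. The CCCUGAG family held 3.92% ± 1.89, made of miR-125a-5p, miR-125b-5p and, as a small part, miR-351-5p, and the GAGAACU family of miR-146a-5p and miR-146b-5p held 3.64% ± 0.685. CCCUGAG was the more variable of these last, from 1.62% in sham 2 to 6.34% in sham 5.

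Ranks 6 to 10 followed. AGCUGCC (miR-22-3p) held 3.32%. UGACCUA (miR-192-5p and miR-215-5p) held 3.26% ± 0.582, of which miR-192-5p supplied 81.8%. GUAAACA (miR-30a-5p, miR-30e-5p and miR-30c-5p) held 2.52% ± 0.202, UCACAGU (miR-27b-3p and miR-27a-3p) 1.87% ± 0.463 and AGCACCA (miR-29a-3p and relatives) 1.23% ± 0.199. Grouped by name instead, which takes in the unmatched miR-30d-5p, the miR-30 family held 4.52% ± 0.314 and varied little, from 4.25% to 4.98%. With miR-486a/b-5p out of the total it was less even, at 6.44% ± 0.961. The let-7 family, the most abundant in many tissues, had 26 entries here and held 0.777% ± 0.247 by name.

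Abundant strands often began with U, a base that Argonaute proteins are known to favour at the 5′ end. Weighted by counts among matched entries, 63.8% ± 3.01 began with U and 0.316% ± 0.0365 with G. The weighted share leans on miR-10a-5p and miR-10b-5p, which begin with U and held 19.8% of all counts. Among the detected entries, each counted once, 43.6% began with U and 9.08% with G. Among those with a mean of at least 100 CPM, each counted once, the shares were 56.4% and 7.92%. Mean length, weighted by counts, was 22.3 ± 0.0811 bases and GC content 46.3% ± 0.342. Length was 22.23 to 22.30 bases in sham 1 to 3 and 22.39 to 22.43 in sham 4 to 6, a small difference without overlap. Both are properties of the annotated sequences of matched entries and not of the reads.

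Neighbouring genes often share a transcript, and grouping precursors within 10 kb on a strand, with entries that map to several loci joining them, gave 5 leading groups. These were Mir486 (28.3% ± 12.7), Mir10b (10.4% ± 3.19), Mir10a (9.42% ± 2.04), 11 precursors of miR-99a, miR-100 and let-7 (6.27% ± 2.01), and Mir143 with Mir145a (5.02% ± 4.54). The first 3 each matched a single precursor gene by name, and no separate gene was matched for miR-486b. In the group led by miR-99a-5p, this miRNA and miR-100-5p outweighed the let-7 members. These loci lie on several chromosomes and were joined because entries such as let-7c-5p map to more than 1 of them. The mean of the Mir143 and Mir145a group fell to 3.32% without sham 6.

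Likely sources were read from 13 lists of miRNAs known to be abundant in a tissue or cell type, which say where a miRNA is known to be made and not where these molecules came from. The lists took in 94 entries that together held 41.5% ± 9.92 of counts, and the rest fell on miRNAs that no list claims, led by miR-10a-5p and miR-10b-5p. In plasma, more cells releasing an miRNA and more release per cell cannot be told apart.

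**Figure D2:**
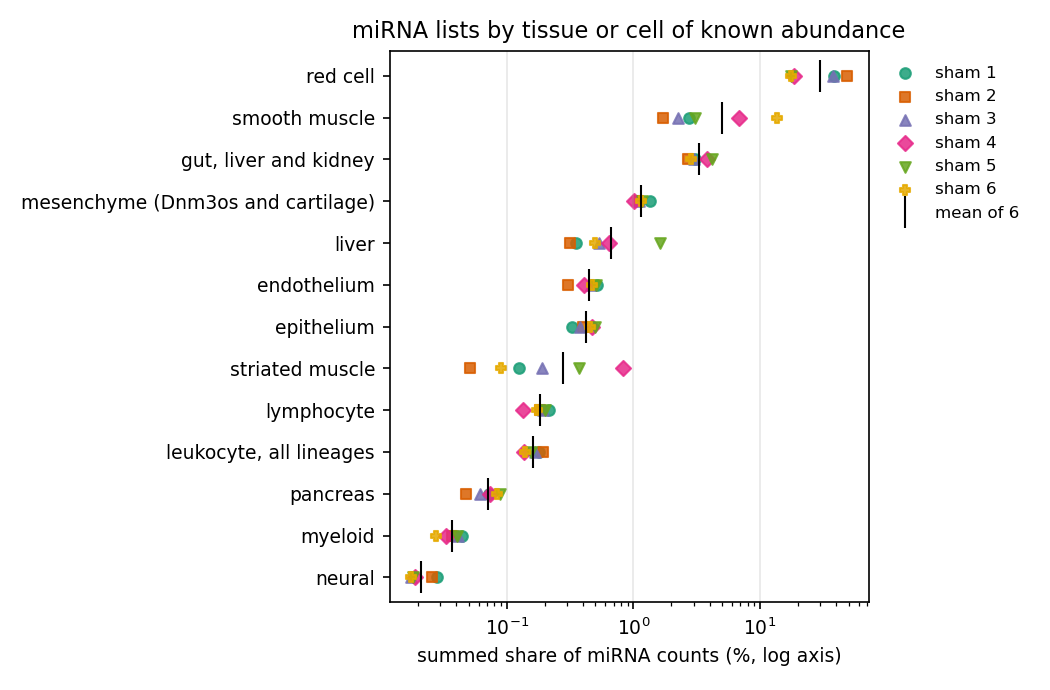
Each row is a list of miRNAs known to be abundant in the named source, each point its summed percent of counts in 1 sham library (x axis, log scale), and the bar the mean of 6. Red cell miRNAs lead in every library (17.6% to 48.5%), and striated muscle miRNAs have the widest spread (0.0515% to 0.824%).

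Red cell miRNAs led in every library. Their summed share was 38.7%, 48.5% and 37.6% in sham 1 to 3 and 18.7%, 17.6% and 17.7% in sham 4 to 6, and miR-486a/b-5p alone supplied 95% of it. miR-451a, which is made without Dicer by Argonaute2 in red cell precursors, had 11574, 12727 and 9220 CPM in sham 1 to 3 against 3947, 5162 and 4907 CPM in sham 4 to 6. Its neighbour in one primary transcript, miR-144-3p, had 7939, 12756 and 9954 CPM against 4101, 3313 and 3024 CPM. All 3 miRNAs thus split the libraries the same way with no overlap. miR-16-5p, abundant in red cells and elsewhere, was also higher in sham 1 to 3, but by less: its highest value was 3105 CPM in sham 2, and sham 1 with 1764 CPM lay near sham 4 with 1559 CPM. These sets were seen in the values and are not groups of the study, the labels give no date or batch for them, and no test was made between them.

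The ratio of miR-486a/b-5p to miR-451a was steadier than either level, at 36.4 ± 5.03 (31.7 to 45.3). The log2 ratio of miR-451a to miR-23a-3p, a common index of red cell breakage in plasma, was 0.24, 0.09, -1.24, -1.28, -0.40 and -0.06 in sham 1 to 6. By this index sham 3 stood with sham 4 at the low end, although its red cell share was 37.6%, and sham 3 had the highest miR-23a-3p. Red cell breakage itself was not measured.

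Smooth muscle miRNAs came second by mean, with 2.75%, 1.71%, 2.26%, 6.81%, 3.06% and 13.5% in sham 1 to 6. miR-143-3p gave 87.8% of that sum, with miR-145a-3p and miR-145a-5p, from the same transcript, behind it. miR-145a-3p was highest in the same libraries, with 11081 CPM in sham 6 and 6840 CPM in sham 4 and no more than 3029 CPM elsewhere. miR-145a-5p was highest there too, but in the other order, at 2932 CPM in sham 6 and 3088 CPM in sham 4. They exceeded the list for gut, liver and kidney in sham 4 and sham 6 only. Without sham 6 the mean share of the list fell from 5.02% to 3.32%, and that of gut, liver and kidney was then 3.36%.

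Striated muscle miRNAs had the widest spread of any list. They summed to 0.125%, 0.0515%, 0.190%, 0.824%, 0.376% and 0.0895%, a 16.0-fold range that sham 4 topped and sham 2 closed. miR-1a-3p, shared by heart and skeletal muscle, had 270, 139, 974, 4268, 1280 and 367 CPM, and its cluster partner miR-133a-3p had 564, 194, 577, 2625, 1648 and 325 CPM. miR-206-3p, which is made mainly in skeletal muscle, had 149, 104, 136, 686, 237 and 96.5 CPM, again highest in sham 4.

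Heart-enriched members of that list were low and did not peak in sham 4 alone. miR-208a-3p, encoded within a cardiac myosin gene, had 2.70, 0.958, 14.9, 20.1, 16.5 and 1.96 CPM. miR-499-5p had 1.11, 0, 11.9, 7.39, 8.79 and 0.374 CPM. Both were higher in sham 3, 4 and 5 than in the others. miR-1a-2-5p, miR-208a-5p and miR-499-3p had 0 counts in all 6. Without sham 4 the mean share of the whole list fell from 0.276% to 0.166%. Without its entries that hold a value that is not whole, miR-133a-3p and miR-133b-3p among them, it was 0.147%.

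**Figure D3:**
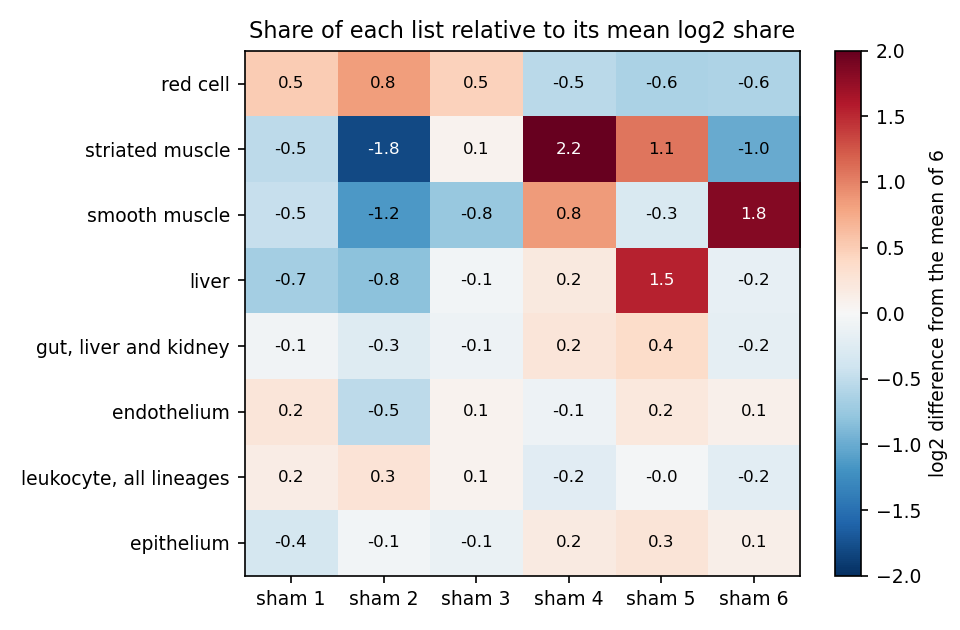
Colours and numbers give, for 8 source lists (rows) and 6 sham libraries (columns), the log2 of the summed share minus the list's mean log2 share, with colours capped at 2. Red cell values are positive in sham 1 to 3 and negative in sham 4 to 6, striated muscle peaks in sham 4 (2.20), smooth muscle in sham 6 (1.83) and liver in sham 5 (1.54).

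Liver miRNAs were carried by miR-122-5p, which makes up most of the miRNA of hepatocytes, with 99.8% of the list's counts. Its values were 3484, 3154, 5392, 6387, 16294 and 5003 CPM in sham 1 to 6. Sham 5 stood apart with a list share of 1.63% against 0.316% to 0.641% in the others. miR-802-5p, also of liver, did not share that peak: it had 8.49 CPM in sham 5 and its highest value, 12.1 CPM, in sham 1.

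miRNAs shared by gut, liver and kidney were both abundant and even, at 3.28% ± 0.584 with a range from 2.70% to 4.17%. miR-192-5p had 26642 ± 5332 CPM and miR-215-5p, its relative, 5924 ± 936 CPM. miR-194-5p, which shares transcripts with both, had 86.1 ± 32.5 CPM, so miR-192-5p exceeded it 339 ± 141 times. miR-191-5p and miR-425-5p, another pair from 1 transcript, likewise lay 192 ± 31.5 times apart, at 40983 ± 3070 and 217 ± 35.7 CPM.

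Other sources were smaller. Mesenchymal miRNAs held 1.15% ± 0.114, mostly miR-140-3p of cartilage (9328 ± 1375 CPM), then miR-199a/b-3p and miR-199a-5p. The endothelial pair miR-126a-3p and miR-126a-5p held 0.444% ± 0.0784. Epithelial miRNAs held 0.423% ± 0.0643, led by miR-183-5p (1112 ± 126 CPM), miR-200a-3p (890 ± 106 CPM) and miR-205-5p (790 ± 340 CPM). Within that list miR-205-5p, of skin and other layered epithelia, ranged from 436 CPM in sham 1 to 1215 CPM in sham 5, whereas miR-200a-3p stayed between 768 and 1026 CPM. miR-141-5p and miR-200c-5p had 0 counts in all 6.

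White cell miRNAs were scarce, and as shares of all counts they were even. The list of miR-142a and miR-155, expressed across leukocytes, held 0.163% ± 0.0225, the lymphocyte list of miR-342 and miR-150 held 0.183% ± 0.0287, and the myeloid list of miR-223 and miR-147 held 0.0373% ± 0.00608. Once miR-486a/b-5p was out of the total, each list was higher in sham 1 to 3 than in sham 4 to 6, without overlap. The leukocyte list then held 0.283%, 0.360% and 0.262% in sham 1 to 3 and 0.167%, 0.187% and 0.168% in sham 4 to 6. miR-223-3p, a leading miRNA of neutrophils and also of platelets, had 320 ± 54.0 CPM and ranked 80 by mean. miR-142a-5p gave 99.7% of its list, while miR-155-5p, induced in activated immune cells, had 1.14 to 4.67 CPM and miR-155-3p 0 counts in all 6. The value of miR-142a-5p was not whole in 3 libraries, as happens when a read is divided between entries.

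Pancreatic miRNAs held 0.0716% ± 0.0150, of which miR-375-3p of endocrine cells gave 97.0%, and miR-217-5p of acinar cells had 14.2 ± 3.33 CPM. miR-216a-3p and miR-216b-3p had 0 counts in all 6. Neural miRNAs held 0.0211% ± 0.00460, led by miR-128-3p (155 ± 41.8 CPM) ahead of miR-219a-1-3p and miR-9-3p. miR-124-5p had 0 counts, and miR-9-5p had none in 4 of the 6.

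Among hairpins of at least 10 CPM, the arm that was kept was nearly always the same from library to library. Both arms were listed for 342 hairpins, and 143 had a mean sum of at least 10 CPM and were tested by an exact two-sided sign-flip permutation test of log2(5p/3p), with 0.5 counts added to each arm. In 132 of the 143 (92.3%) the arms differed by this exact test after Benjamini-Hochberg adjustment (p = 0.03125, the smallest that 6 libraries allow, adjusted p = 0.0339), and in each of these the same arm was higher in 6 of 6 libraries. The 5p arm was the higher in 72 (50.3%) and the 3p arm in 60 (42%). The arms lay more than 10-fold apart in 106 hairpins and within 2-fold in 13. Because the test reaches only this p, it separates same-sided hairpins from the rest and does not grade them.

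**Figure D4:**
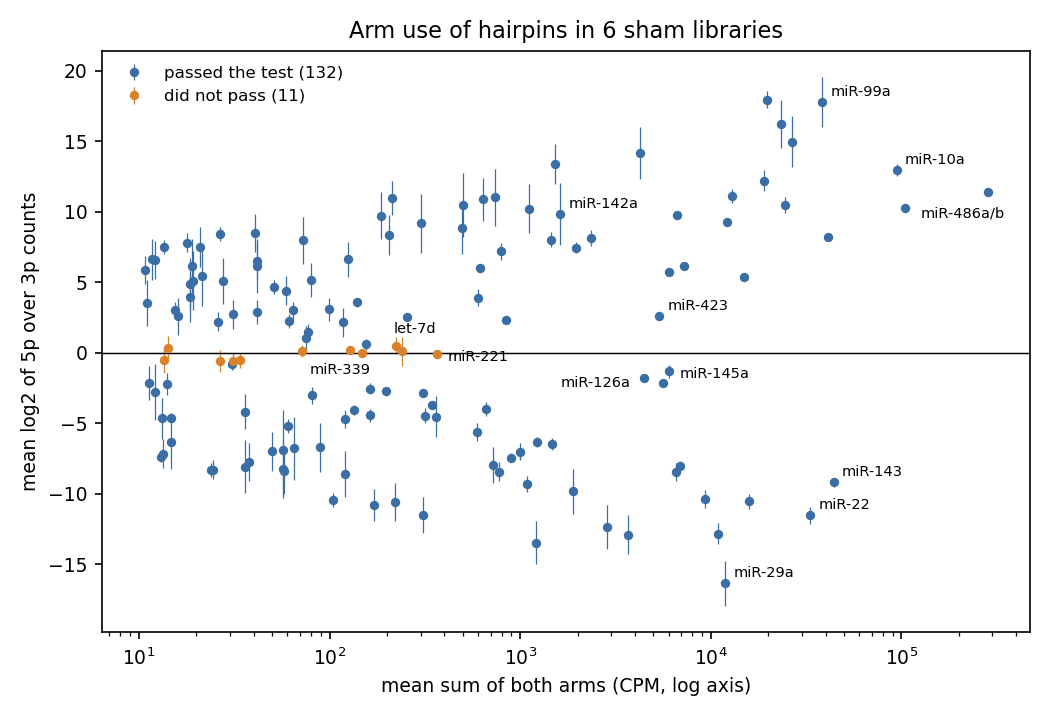
Each point is a hairpin, with the mean sum of its arms in CPM (x axis, log scale) and the mean log2 of 5p over 3p counts in 6 sham libraries (y axis, bars are SD); blue points passed the exact test and orange points did not. The 72 hairpins above 0 and the 60 below that passed sit mostly far from 0, and the 11 that did not pass lie near it.

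By counts, the 5p arm prevailed more clearly, since 5p entries held 79.3% ± 3.88 of all counts and 3p entries 19.5% ± 4.14. Of the 10 most abundant hairpins 8 used the 5p arm, and only miR-143 and miR-22 used 3p. The log2 ratio of 5p to 3p was 11.37 ± 0.20 for miR-486a/b, 10.30 ± 0.22 for miR-10b, 12.95 ± 0.42 for miR-10a and 8.23 ± 0.26 for miR-191. On the other side it was -9.18 ± 0.31 for miR-143 and -11.52 ± 0.60 for miR-22. Of the hairpins tested, the next with 3p higher were miR-27b, miR-29a, miR-23a and miR-140. Hairpins with an arm listed under a locus number were left out, among them miR-24, whose 3p entry had 12050 CPM. With such arms summed, 165 hairpins were tested, and of those that passed 5p was higher in 85 and 3p in 69. For miR-99a, miR-192, miR-146a and miR-29a the lesser arm had 0 counts in at least 1 library, so the ratio there depends on the counts added.

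A few hairpins left both arms in plasma. miR-145a had 4428 ± 3789 CPM of 3p and 1635 ± 1098 CPM of 5p, with 3p higher in all 6 libraries (log2 5p/3p -1.32 ± 0.48), although 5p is commonly named as its main strand in tissue. miR-126a (-1.81 ± 0.18) and miR-151 (-2.14 ± 0.19) also leaned to 3p, and miR-423 (2.62 ± 0.08) and miR-139 (0.60 ± 0.40) to 5p, each on the same side in all 6. miR-142a lay at the other extreme, with 1620 ± 224 CPM of 5p and 3.09 ± 2.26 CPM of 3p, which had 0 counts in sham 4.

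The higher arm switched between libraries in 11 hairpins: miR-221, let-7d, miR-434, miR-339, miR-409, miR-15b, miR-664, miR-15a, miR-872, miR-130b and miR-350. For miR-339 the arms were near equal throughout, with a log2 ratio between -0.13 and 0.24. For let-7d the ratio was -0.00, 1.06, 1.47, 0.02, -0.94 and -1.05 in sham 1 to 6, a swing that among the 11 only miR-350, at a sum of 13.5 CPM, exceeded. Its 5p arm moved more than its 3p arm: let-7d-5p had 61.9 to 241 CPM and let-7d-3p 78.3 to 142 CPM. For miR-221, an miRNA of vessel wall and many other cells, the log2 ratio was 0.09, 0.15 and 0.11 in sham 1 to 3 and -0.46, -0.33 and -0.28 in sham 4 to 6.

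Spread between libraries was measured over the 252 entries of at least 10 CPM by the biological coefficient of variation (BCV) of edgeR. It is a relative SD with counting noise taken out. The BCV per entry is drawn toward a trend over abundance, so it is not the entry's own relative SD. For miR-191-5p the SD of the share was 7.49% of its mean, whereas the BCV was 0.247 and the trend 0.365. The common BCV was 0.336 and the median over entries 0.291. Muscle miRNAs filled most of the top places among entries of at least 100 CPM: miR-1a-3p (0.864), miR-133a-3p (0.692), miR-143-3p (0.663), miR-145a-3p (0.643), miR-133b-3p (0.595), miR-206-3p (0.592) and miR-145a-5p (0.553), followed by the red cell miRNA miR-144-3p (0.531). At that abundance the lowest values were miR-700-3p (0.213), miR-221-3p (0.216), miR-652-3p (0.216), miR-744-5p (0.218), miR-224-5p (0.219), miR-532-5p (0.227), miR-101a-3p (0.231) and miR-215-3p (0.231). The abundant miR-191-5p (0.247) was close to these, and miR-486a/b-5p had 0.444. Entries with the lowest BCV were not those with the steadiest shares, because the trend differs with abundance. For miR-320-3p the SD of the share was 4.98% of its mean, whereas the BCV was 0.241 and the trend 0.353. The trend for miR-700-3p was 0.312.

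**Figure D5:**
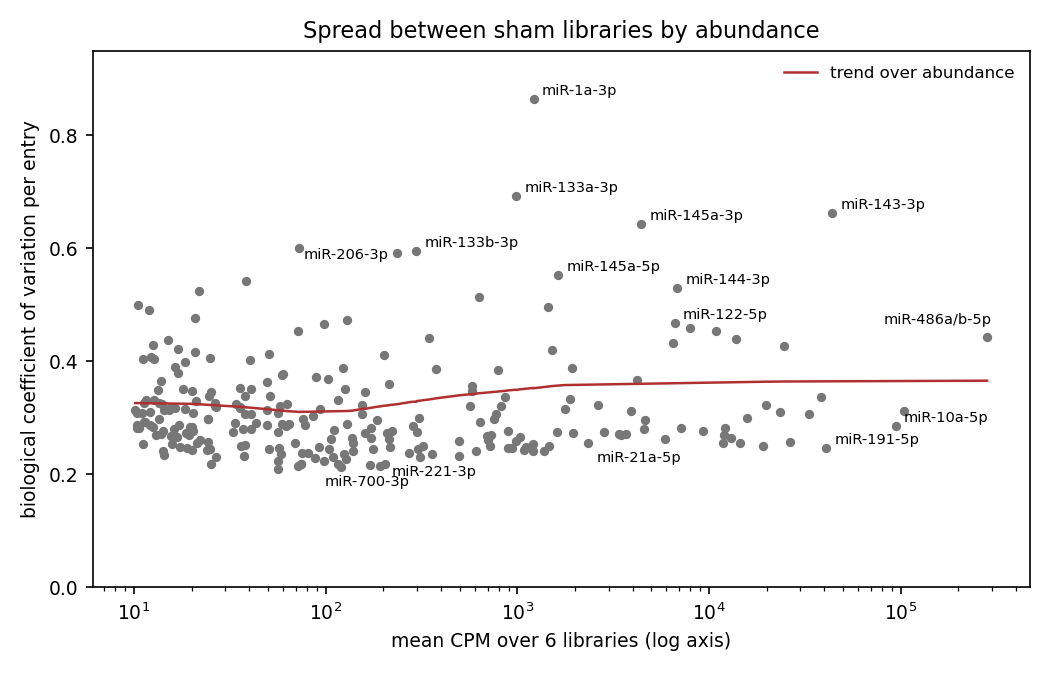
Each point is 1 of 252 entries, with mean CPM over the 6 sham libraries (x axis, log scale) and the biological coefficient of variation of that entry (y axis); the line is the trend over abundance. miR-1a-3p stands highest at 0.864, with the other muscle miRNAs above the trend and miR-191-5p below it at 0.247.

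The largest axis of variation, 52.4% of the variance of log2 CPM, set sham 1 to 3 (scores 2.57, 7.81 and 4.56) apart from sham 4 to 6 (-5.31, -5.0 and -4.64). At its positive end lay miR-103-3p, miR-144-3p, miR-106b-3p, miR-17-5p, let-7i-5p, miR-505-5p, let-7d-5p and miR-20a-5p. At its negative end lay the muscle miRNAs miR-1a-3p, miR-133a-3p, miR-145a-3p and miR-143-3p, with miR-125b-5p and miR-125a-5p. let-7i-5p, for example, had 1649, 2225 and 2469 CPM in sham 1 to 3 and 751, 818 and 731 CPM in sham 4 to 6, so the split was not limited to miR-486a/b-5p and miR-451a. The second axis, 19.2% of the variance, ran from sham 4 to sham 6, with miR-1a-3p and miR-133a-3p at the sham 4 end and miR-143-3p and miR-150-3p at the other. What set these libraries apart was not tested.

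Whether miRNAs of 1 transcript or source rose and fell together was asked for 14 pairs, with exact permutation tests on log2 CPM over the 6 libraries, adjusted over all 14. In 8 pairs at least 1 member had values in sham 1 to 3 and in sham 4 to 6 that did not overlap. No pooled correlation is given for these, since 3 libraries are too few to test within; this was decided after the values were seen. They were the 5 pairs with miR-451a or miR-486a-5p, miR-143-3p with miR-145a-5p, miR-10a-5p with miR-10b-5p, and miR-199a/b-3p with miR-214-3p. miR-199a/b-3p, a single entry for miR-199a-3p and miR-199b-3p, had 598, 471 and 698 CPM in sham 1 to 3 and 935, 1243 and 973 CPM in sham 4 to 6, and miR-214-3p had 513, 296 and 396 CPM against 617, 928 and 726 CPM. As parts of a total that includes miR-486a/b-5p, both were thus higher in the second set.

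Of the other 6 pairs, 3 passed by Pearson's r (each adjusted p = 0.0272 by the exact permutation test) and none by Spearman's rho. The muscle pairs were miR-1a-3p with miR-133a-3p (r = 0.93, rho = 0.94, exact adjusted p for rho 0.0778) and miR-206-3p with miR-133b-3p (r = 0.87, rho = 0.94, exact adjusted p for rho 0.0778). Without the 2 libraries farthest from the median, r was 0.72 and 0.93. miR-122-5p with miR-192-5p had r = 0.90 and rho = 0.77 (exact adjusted p for rho 0.180), and r dropped to 0.60 without 2 libraries and to 0.51 with miR-486a/b-5p taken out of the total (exact adjusted p = 0.311). With TMM scaling only miR-206-3p with miR-133b-3p still passed, and over any 5 libraries none of the 3 did.

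The last 3 pairs did not pass. miR-192-5p with miR-194-5p had r = 0.32 and rho = 0.26 (exact adjusted p = 0.609 and 0.768). Leaving out 1 library at a time gave r from -0.735 to 0.942 for this pair, so the pooled r was not stable. miR-223-3p with miR-142a-3p had r = 0.11 and rho = 0.09 (exact adjusted p = 0.853 and 0.990), the latter miRNA lying near the floor. miR-191-5p with miR-425-5p had r = 0.12 and rho = 0.03 (exact adjusted p = 0.853 and 1.0). Once miR-486a/b-5p was left out of the total, both were higher in each of the first 3 libraries than in any of the last 3. No pooled r is given for that setting, as for the pairs set aside above.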

How the data were processed

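Small RNA from platelet-free plasma was sequenced after adapter ligation and gel selection, per the labels' protocols. The deposited table holds expected counts per miRNA, not scaled for depth, and its name gives the exceRpt pipeline as source. Per the submitters' processing notes, mm10 was the build. How they were aligned and which miRNA annotation was used is not given in the sources used here. Of its entries, 118 had a value that was not whole in a sham library, 19 named several miRNAs and 44 named a hairpin.

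CPM and percents were computed from each library's total. Spread was estimated with edgeR 4.0.16 in R 4.3.3 (TMM scaling, counts rounded to whole numbers), with DESeq2 1.42.0 as an alternative. Arm and pair tests were exact permutations in Python 3.11.15 (64 sign flips, 720 orders), two-sided, Benjamini-Hochberg adjusted, threshold 0.05. These scripts were tested on simulated data. Precursor positions came from GENCODE on mm10 and mature sequences from RefSeq. No library was a copy of another (lowest chi-square per degree of freedom 159). Values named were the 20 most abundant entries, up to 3 leaders of each list and any list member at 0, the members of 14 pairs, the 8 highest and 8 lowest BCV, leading and near-equal hairpins, families and precursor groups; others were named after their values were seen. Members and lists were chosen with earlier results of these data known. Alternatives were other denominators, scalings, floors, family definitions and leaving out each library. The CLP libraries were not analysed here.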

Additional observations from a re-analysis of the deposited data

Results flagged for a closer look

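Of 62 measures checked over the 6 libraries, 2 had a library whose gap to its nearest neighbour exceeded Dixon's 95% critical share of the whole range for 6 values; chance alone flags about 1 in 20 groups. The total of sham 6 was 10702028 counts, with a gap of 0.626 of the range. The liver list made up 1.63% of sham 5, with a gap of 0.754 of the range, carried by miR-122-5p. In the same library miR-122-3p had its highest value, 18.8 CPM, and so had miR-192-5p, at 35082 CPM. miR-802-5p had 8.49 CPM there, within the range of the others.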

How the results depend on the processing

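Of 361 alternative values over 44 results, 302 kept their side of the threshold or stayed within their spread or within 1.5 times. Another 33 moved. For shares and other means per library, leaving out a library or taking the median cannot shift the value by its SD. Such values could only stay within their spread, so the 302 is not a measure of robustness. Of the rest, 21 correlations no longer passed, 4 counts of hairpins fell by more than 1.5 times and 1 correlation came to pass. That was miR-191-5p with miR-425-5p with miR-486a/b-5p out of the total. Their values then split the libraries without overlap, so no conclusion is drawn from it. A correlation counted as reversed only if it passed with the opposite sign, and none did. The 3 pairs that did not pass at first changed sign with some library left out. Over 5 libraries r ran from -0.347 to 0.616 for miR-223-3p with miR-142a-3p and from -0.0468 to 0.272 for miR-191-5p with miR-425-5p. Taking miR-486a/b-5p out of the total moved the share of the first entry to 14.6%, of the first 10 to 62.5%, of the 10 largest seed families from 50.7% to 70.4%, and of the lists for red cell to 2.30%, gut, liver and kidney to 4.61%, endothelium to 0.627%, mesenchyme to 1.65%, myeloid to 0.0541%, leukocyte to 0.238%, lymphocyte to 0.265%, epithelium to 0.597%, neural to 0.0309% and pancreas to 0.0996%. Leaving out hairpin and multi-name entries gave 14.7% and 62.7% for the first and first 10, and families by name gave 79.7%. Without entries holding values that were not whole, the leukocyte list fell to 0.000557%, since miR-142a-5p is such an entry, epithelium to 0.324% and striated muscle to 0.147%. Requiring 10 counts left 429 entries per library. At 100 CPM, 41 hairpins had 5p and 38 had 3p higher, 79 in all, of 84 tested; with no floor 0 of 325 passed, since low hairpins dilute an adjustment in which no raw p can be below 0.03125. The higher arm switched between libraries in 32 of 223 hairpins at a floor of 1 CPM and in 70 of 325 with no floor. With no filter the common BCV was 0.590 and the median 0.987. 

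Under TMM r was 0.92 for miR-1a-3p with miR-133a-3p (exact adjusted p = 0.0535) and 0.82 for miR-122-5p with miR-192-5p, and neither passed. With miR-486a/b-5p out of the total, r was 0.51 for miR-122-5p with miR-192-5p. No r is given there for miR-191-5p with miR-425-5p, whose values then split the libraries without overlap. Over 5 libraries no pair that had passed still did (fewer orders exist), with r from 0.854 to 0.959 for miR-1a-3p with miR-133a-3p, 0.837 to 0.974 for miR-206-3p with miR-133b-3p and 0.781 to 0.951 for miR-122-5p with miR-192-5p. The cause of the other changes was not tested. The sign-flip test cannot go below 0.0625 with 5 libraries, so only its counts of same-sided hairpins were repeated (132 to 135). No paired analysis was possible because only sham libraries were used. Entries below the floor of 3 counts cannot be ranked at this depth.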
